A study of Mus musculus with 16 samples.

Results

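The 7 genes described here encode the Fcγ receptors of the mouse and the proteins that carry their signal: Fcgr1, Fcgr3, Fcgr4, Fcgr2b, Fcer1g, Tyrobp and Syk. They were chosen by name, and all 7 were found among the 54838 gene identifiers of the deposited counts. All 7 were also among the 12612 genes with enough reads to test, with between 135 (Fcgr1) and 126662 (Fcer1g) reads per library. The libraries hold RNA from bone marrow-derived macrophages, cells grown from marrow in medium conditioned by L929 cells, from Apoe-deficient mice, whose strain label is C57BL/6J and whose genotype label is B6.129P2-Apoetm1Unc/J. Because the controls carry the same genotype, no comparison here tests it. The 4 groups of 4 libraries received DMSO, TNFα (50 ng/ml for 24 h), TMP195 (5 µM, from 1 h before the same TNFα) or TPCA-1 (500 nM, from 1 h before the same TNFα). TMP195 inhibits class IIa histone deacetylases, and TPCA-1 inhibits IKK2, the kinase that activates NF-kB; they are unrelated compounds given at different doses. The labels do not say whether the replicates came from separate animals or whether cells given TNFα alone also received DMSO, so the p-values measure only the spread between these libraries, which may be technical.

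Fcγ receptors bind the constant part of IgG and let macrophages take up antibody-coated particles and respond to immune complexes. The activating receptors, encoded by Fcgr1, Fcgr3 and Fcgr4, need the common γ chain encoded by Fcer1g, whose ITAM motif is phosphorylated by Src-family kinases and then recruits the kinase Syk. Fcgr2b encodes the inhibitory receptor, which carries an ITIM motif in its own tail and recruits phosphatases that oppose the same signal. Tyrobp encodes DAP12, a second ITAM adaptor that serves other macrophage receptors and also recruits Syk. The balance between activating and inhibitory receptors is known to set how strongly a macrophage answers an immune complex.

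With TNFα, Fcgr1 fell and Syk rose, while Fcgr2b and Fcgr3 did not pass the test. In every pair of libraries with the same replicate number Fcgr2b was higher and Fcgr3 lower. That pairing was drawn from the data and not from the labels. The Syk call was kept in 12 of 16 alternative fits. With TMP195 added to TNFα, Fcer1g fell and Fcgr1 did not pass the test. With TPCA-1 added to TNFα, Fcgr1 fell to a mean of 25.5 ± 5.97 counts per 1e6 counted reads (CPM; SD, n = 4), and Fcer1g did not pass the test. Fcgr4 had the same log2 change of -0.62 with either inhibitor added. With TPCA-1 it passed the test narrowly, and the call was kept in 7 of 15 alternatives. With TMP195 it did not pass, and this was kept in 10 of 16. In the direct comparison of the inhibitor groups, Fcgr1 was higher and Fcer1g was lower with TMP195.

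Libraries held 7.49 to 31.6 counted reads in units of 1e6, and 3 reads corresponded to 0.0949 to 0.401 CPM. TPCA-1+TNFα replicate 2 was the shallowest, with 44.0% unmapped reads where no other library exceeded 7.11%. Apoe itself was nearly unread, at 1 to 11 reads. All 9 macrophage markers looked for were among the tested genes, led by Lyz2, and their summed level was 16545 to 25560 CPM with DMSO, 18075 to 26135 CPM with TNFα, 12705 to 18060 CPM with TMP195 and TNFα and 13642 to 21546 CPM with TPCA-1 and TNFα. The NK cell, T cell, and mast cell and basophil lists held no gene with enough reads to test, and summed to at most 0.405, 0.541 and 0.391 CPM. Of the other lists, 2 of 6 B cell genes, 3 of 10 neutrophil genes, 1 of 6 dendritic cell genes, 2 of 5 megakaryocyte and platelet genes and 1 of 6 stromal and endothelial genes were tested. Their highest genes were Cd79b, Csf3r, Zbtb46, Ppbp and Pecam1. The megakaryocyte and platelet sum was 1.53 to 2.19 CPM with DMSO, 4.47 to 11.9 CPM with TNFα, 5.20 to 13.2 CPM with TMP195 and TNFα and 5.68 to 25.6 CPM with TPCA-1 and TNFα. The stromal and endothelial sum was 8.04 to 10.97 CPM with DMSO, 4.38 to 7.70 CPM with TNFα, 4.48 to 6.84 CPM with TMP195 and TNFα and 15.8 to 40.1 CPM with TPCA-1 and TNFα. Each of these 2 sums was mostly 1 gene. With TPCA-1 and TNFα, Ppbp was at 5.14 to 24.6 CPM and Pecam1 at 15.4 to 38.6 CPM. In any library, no other gene of the Ppbp list exceeded 2.30 CPM, and none of the Pecam1 list exceeded 1.35 CPM.

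Promoter sequence was taken from RefSeq (GRCm38.p6) for 6 of the 7 genes, and the 160 bases before the annotated start of the 4 receptor genes are shown because the results below turn mainly on the receptors. All are read 5′ to 3′ on the strand of the gene. The starts are those of RefSeq. The Fcgr3 and Fcgr2b stretches lie wholly inside the gene spans given below, which begin further upstream. Capitals mark matches to 3 patterns searched on both strands of the 250 bases before each start: the gamma-activated site of interferon-responsive genes (TTCNNNGAA), the core bound by the macrophage factor PU.1 (GAGGAA, which reads TTCCTC when it lies on the other strand) and the NF-kB site.
Fcgr1, chr3:96293970-96294129, minus strand: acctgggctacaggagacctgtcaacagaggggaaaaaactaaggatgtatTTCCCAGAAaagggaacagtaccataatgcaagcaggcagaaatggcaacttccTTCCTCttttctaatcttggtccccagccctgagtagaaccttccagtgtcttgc
Fcgr3, chr1:171059404-171059563, minus strand: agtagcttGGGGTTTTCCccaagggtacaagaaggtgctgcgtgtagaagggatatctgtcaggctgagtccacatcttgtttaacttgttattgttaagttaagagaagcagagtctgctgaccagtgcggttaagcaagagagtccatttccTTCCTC
Fcgr4, chr1:171018766-171018925, plus strand: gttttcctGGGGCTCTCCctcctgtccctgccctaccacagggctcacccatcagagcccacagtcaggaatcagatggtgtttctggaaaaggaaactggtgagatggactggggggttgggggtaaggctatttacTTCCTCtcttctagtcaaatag
Fcgr2b, chr1:170976072-170976231, minus strand: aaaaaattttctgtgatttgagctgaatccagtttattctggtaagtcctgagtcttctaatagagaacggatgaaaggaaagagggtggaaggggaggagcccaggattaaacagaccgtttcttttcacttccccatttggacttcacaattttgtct

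Among these stretches, the Fcgr1 sequence held the gamma-activated site pattern, 109 to 101 bases before the start, and 7.02% of the 32851 promoters in the table held it in a window of the same length. Fcgr3 and Fcgr4 each held an NF-kB pattern 152 to 143 bases before the start, which 7.25% of promoters held. The PU.1 core lay 55 to 50 bases before the start of Fcgr1, 6 to 1 before that of Fcgr3 and 22 to 17 before that of Fcgr4, and 23.2% of promoters held it. A second Fcgr3 start had the same NF-kB and PU.1 matches, 161 to 152 and 15 to 10 bases before it. The Fcgr2b and Fcer1g windows held none of the 3 patterns, and the second of 2 Syk starts held the PU.1 core. A match is a description of the letters and no evidence of binding, and a missing match says only that these letters are not in this window.

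Fcgr1 (ENSMUSG00000015947, chr3:96282909-96293969, minus strand, GRCm38) encodes CD64, the high-affinity receptor for IgG. In order of replicate number it was at 308, 230.1, 235 and 229 CPM with DMSO and at 163, 103, 156 and 138 CPM with TNFα. With TMP195 and TNFα it was at 179, 103, 129 and 76.0 CPM. With TPCA-1 and TNFα it was at 31.2, 18.2, 29.5 and 23.2 CPM. Every DMSO library lay above every TNFα library, and every TPCA-1 library lay below every library of the other groups, while the TMP195 libraries spread across and beyond the range of TNFα alone.

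With TNFα, Fcgr1 fell by 0.84 ± 0.22 on the log2 scale (SE, 4 libraries against 4) with an adjusted p of 0.00985 by edgeR's quasi-likelihood test with Benjamini-Hochberg adjustment. It was lower in 4 of 4 same-number pairs. Adding TPCA-1 to TNFα lowered it by a further log2 change of -2.44 ± 0.24 (adjusted p = 1.41e-06), and against DMSO the change was -3.28 ± 0.24 (adjusted p = 4.06e-08). Adding TMP195 gave a change of -0.20 ± 0.22 (adjusted p = 0.729), TMP195 with TNFα against DMSO gave -1.04 ± 0.22 (adjusted p = 0.00172), and the direct comparison placed Fcgr1 higher with TMP195 than with TPCA-1 by 2.24 ± 0.23 (adjusted p = 2.62e-06). In bulk RNA, fewer cells that express a gene and less RNA per cell cannot be told apart, and this holds for every change given here.

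**Figure D1:**
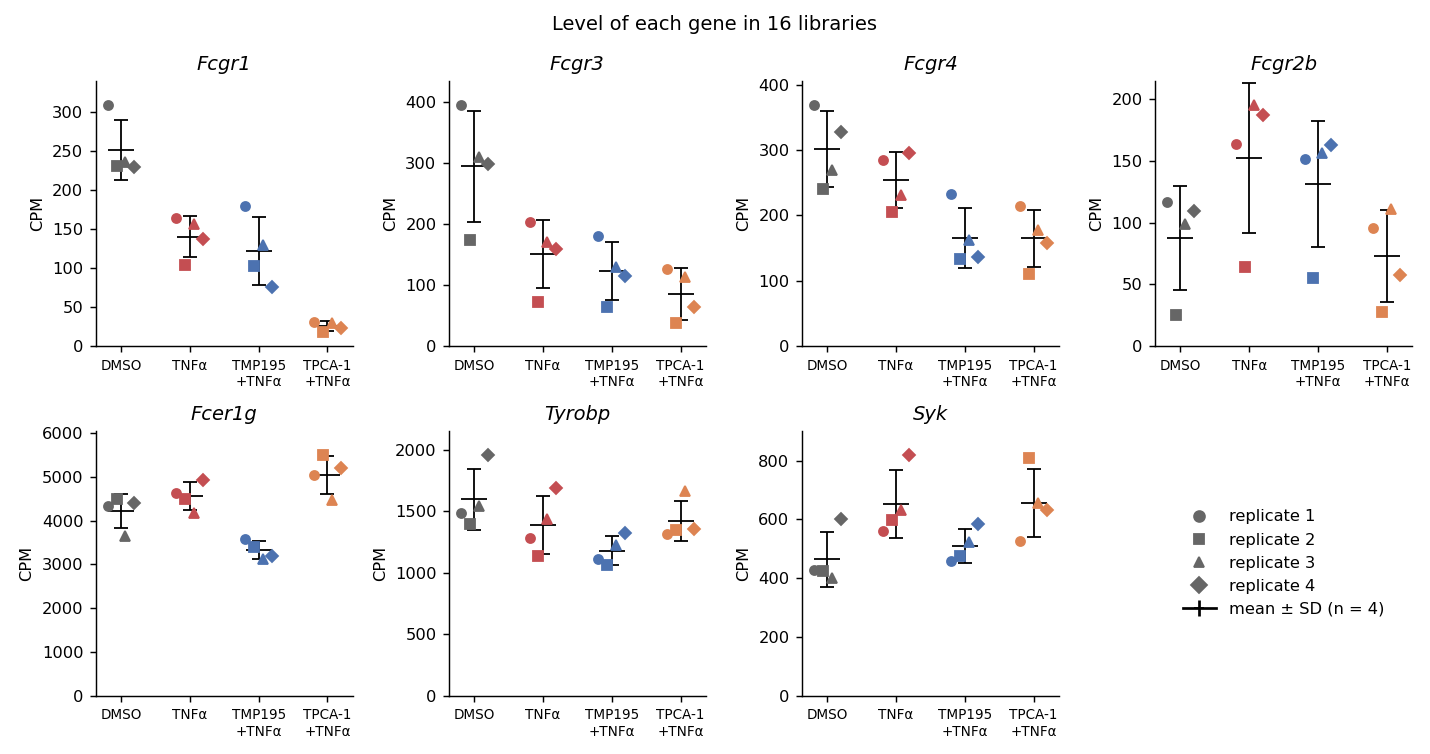
Level of each of the 7 genes in CPM (vertical axes, from 0) in the 4 groups (horizontal axes), with 1 point per library, shaped by replicate number, and the mean ± SD of 4 libraries in black. The Fcgr1 points of TPCA-1+TNFα sit between 18.2 and 31.2 CPM, below all others, and the Fcer1g points of TMP195+TNFα sit between 3128 and 3587 CPM, below those of every other group.

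Transcription factors that textbooks name for Fc receptor genes were described as a list of 8. With TPCA-1 added to TNFα, 5 of the 8 fell and 1 rose, where 9.72% of all genes were called lower and 9.67% higher, and the list's median change was -0.81 against 0.02 over all genes tested. Stat2 and Irf9, which act in the response to type I interferon, fell, with log2 changes of -2.67 ± 0.19 and -2.49 ± 0.12. Spi1, which encodes PU.1 and had the highest level of the list, was at 414 ± 49.4 CPM with TNFα and at 456 ± 29.8 CPM with TPCA-1 added (SD, n = 4; adjusted p = 0.413 by edgeR). With TNFα alone against DMSO, where 23.4% of all genes were called, 1 of the 8 changed, Cebpb, which rose by 1.50 ± 0.24. With TMP195 added to TNFα, edgeR called 0 of the 8, where it called 5.95% of all genes. By contrast, edgeR at an unadjusted p under 0.05, DESeq2, limma voom and the block each counted 1 as lower. Spi1 changed there by -0.38 ± 0.11 (adjusted p = 0.0581 by edgeR).

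Fcgr3 (ENSMUSG00000059498, chr1:171051174-171064935, minus strand) encodes the low-affinity activating receptor CD16. Its levels in replicate order were 395, 174, 309.5 and 299 CPM with DMSO and 203, 72.1, 171 and 159.9 CPM with TNFα. They were 180.0, 64.2, 129.6 and 115 CPM with TMP195 and TNFα, and 127, 37.3, 114 and 63.3 CPM with TPCA-1 and TNFα. Replicate 2 was the lowest library in each of the 4 groups, and the DMSO and TNFα groups overlapped only because the DMSO replicate 2 value lay below the highest TNFα value.

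Between TNFα and DMSO the log2 change of Fcgr3 was -0.96 ± 0.38 (adjusted p = 0.0786), and it was lower in 4 of 4 same-number pairs, at 0.415 to 0.551 of the DMSO level. With replicate number as a block, which the pairing check allowed for this comparison, the change was -1.0 ± 0.12 (adjusted p = 9.62e-06), and limma voom (adjusted p = 0.0198), a fit of the 2 groups alone (adjusted p = 0.0394) and a fit with no filter on low counts (adjusted p = 0.0149) called it too. Leaving out DMSO replicate 2 gave -1.14 ± 0.39 (adjusted p = 0.0449), and leaving out the shallow TPCA-1+TNFα replicate 2, which enters the shared estimate of spread, gave -0.96 ± 0.34 (adjusted p = 0.0468). Adding TMP195 or TPCA-1 to TNFα gave changes of -0.31 ± 0.38 (adjusted p = 0.771) and -0.82 ± 0.38 (adjusted p = 0.142, and 0.0449 with no filter on low counts). At each replicate number Fcgr3 was lower with either inhibitor added than with TNFα alone, though the pairing check did not pair the TPCA-1+TNFα libraries. Against DMSO, Fcgr3 was lower with TPCA-1 and TNFα by a log2 change of -1.78 ± 0.39 (adjusted p = 0.00206), and these groups did not overlap. Against DMSO it was also lower with TMP195 and TNFα, with a change of -1.27 ± 0.38 (adjusted p = 0.0187), a call that was lost without DMSO replicate 1 (adjusted p = 0.0623) or TMP195+TNFα replicate 2 (adjusted p = 0.0617).

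Fcgr4 (ENSMUSG00000059089, chr1:171018920-171029761, plus strand) encodes the activating receptor of intermediate affinity, which binds mainly IgG2a and IgG2b. It was at 369, 240.4, 269.6 and 328 CPM with DMSO and at 285, 205, 231 and 295 CPM with TNFα, and these groups overlapped. Its levels were 232, 133, 162 and 136 CPM with TMP195 and TNFα, and 215, 109.9, 178 and 157 CPM with TPCA-1 and TNFα. Both inhibitor groups lay wholly below DMSO, and each overlapped TNFα alone through its replicate 1.

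TNFα against DMSO gave Fcgr4 a log2 change of -0.25 ± 0.21 (adjusted p = 0.456). With TPCA-1 added to TNFα it fell by 0.62 ± 0.21 (adjusted p = 0.0452). That call was lost without any one of TNFα replicates 1, 3 or 4 or TPCA-1+TNFα replicates 2, 3 or 4, with adjusted p-values of 0.0598 to 0.129, and also by limma voom (0.0631) and in a fit of the 2 groups alone (0.057). With TMP195 added to TNFα the change was of the same size, -0.62 ± 0.21, with an adjusted p of 0.0948; it was lower in 4 of 4 same-number pairs, and the block gave -0.64 ± 0.12 (adjusted p = 0.00186). DESeq2 (adjusted p = 0.0471), limma voom (adjusted p = 0.0362) and a fit with no filter (adjusted p = 0.0374) called it. Leaving out TMP195+TNFα replicate 1 (adjusted p = 0.0277) or TPCA-1+TNFα replicate 2 (adjusted p = 0.0488) also brought that change past the threshold. The inhibitor groups differed from each other by 0.00 ± 0.21 (adjusted p = 0.99), and against DMSO Fcgr4 was lower, with log2 changes of -0.86 ± 0.21 with TMP195 (adjusted p = 0.00447) and -0.87 ± 0.21 with TPCA-1 (adjusted p = 0.00437). Neutrophils, which also carry Fcgr3 and Fcgr4, had markers that summed to 54.1 to 94.2 CPM with DMSO, 146 to 187 CPM with TNFα, 92.5 to 125 CPM with TMP195 and TNFα and 58.9 to 103 CPM with TPCA-1 and TNFα. Their defining genes Ly6g, Elane and Ngp had no read in any library, and the part of the other markers in these changes was not tested.

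Fcgr2b (ENSMUSG00000026656, chr1:170958617-170976547, minus strand) encodes the inhibitory receptor CD32B. In replicate order it was at 117, 25.0, 99.0 and 109.5 CPM with DMSO and at 164, 63.7, 195 and 187 CPM with TNFα. It was at 151, 55.1, 156 and 163 CPM with TMP195 and TNFα, and at 95.3, 27.8, 111 and 57.8 CPM with TPCA-1 and TNFα. Replicate 2 was again the lowest in every group; among the other replicates, those of TNFα and of TMP195 with TNFα all lay above those of DMSO.

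Between TNFα and DMSO the log2 change of Fcgr2b was 0.80 ± 0.47 (adjusted p = 0.263). It was higher in 4 of 4 same-number pairs, at 1.40 to 2.55 times the DMSO level, and with the block the change was 0.88 ± 0.16 (adjusted p = 0.000400). With TMP195 and TNFα against DMSO it was 0.59 ± 0.47 (adjusted p = 0.414), higher in 4 of 4 pairs, and 0.67 ± 0.16 with the block (adjusted p = 0.00318). Adding TMP195 to TNFα gave -0.22 ± 0.47 (adjusted p = 0.894) and adding TPCA-1 gave -1.06 ± 0.48 (adjusted p = 0.133, and 0.0333 with no filter on low counts). Fcgr2b too was lower with either inhibitor added at each replicate number, with the same limit for TPCA-1+TNFα. The change with TPCA-1 and TNFα against DMSO was -0.26 ± 0.47 (adjusted p = 0.717). B cells, whose sole Fcγ receptor is this gene's product, had summed markers of 42.3 to 58.6 CPM with DMSO and 19.2 to 27.4 CPM with TNFα, and these ranges did not overlap. With TMP195 and TNFα they summed to 20.1 to 26.2 CPM, and with TPCA-1 and TNFα to 32.3 to 55.2 CPM. Over all libraries Cd79b was at 9.66 to 48.6 CPM and Cd22 at 4.94 to 21.1 CPM, and the part of these markers in the Fcgr2b levels was not tested.

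**Figure D2:**
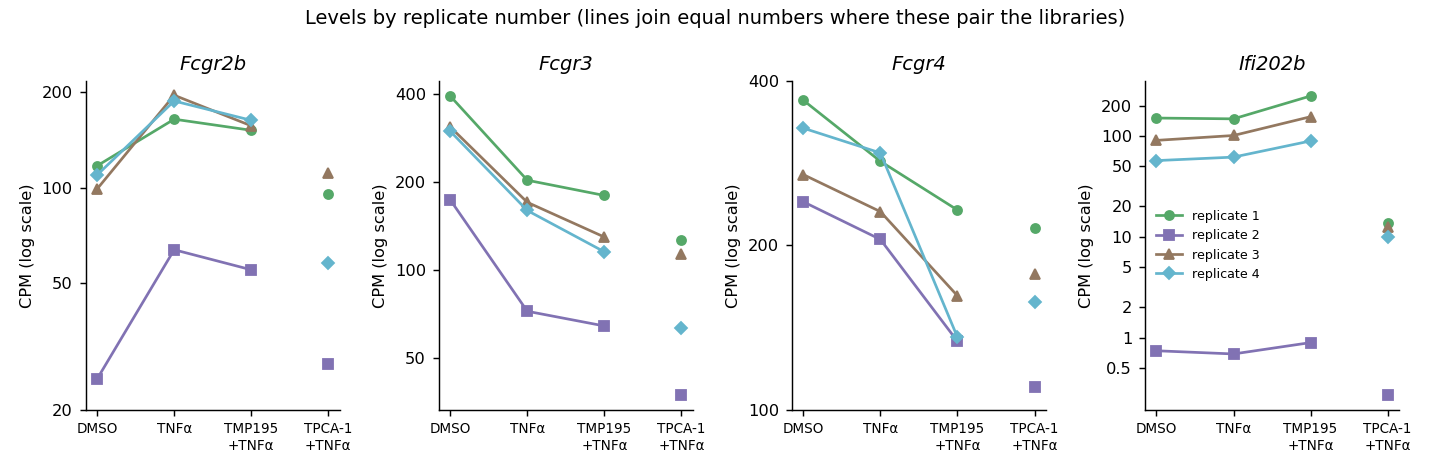
Levels of Fcgr2b, Fcgr3, Fcgr4 and the interferon-inducible gene Ifi202b (CPM, log scale, vertical axes) by group, with 1 point per library and lines joining equal replicate numbers in the 3 groups where these pair the libraries. For Fcgr2b and Fcgr3 the replicate 2 points lie below those of the other replicates in every group while keeping the direction between groups, and the Ifi202b points of replicate 2 lie between 0.270 and 0.891 CPM.

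A few other genes of the same chromosome region were also low in replicate 2. In a scan made after the values were seen, 13 of the 12612 tested genes were lowest in replicate 2 in all 4 groups and at least 1 log2 unit lower than the other replicates on average. Of these 13 genes, 4 lay between 170 and 175 Mb of chromosome 1, a window that holds 76 of the genes tested (0.603%): Fcgr2b (-1.67), Fcgr3 (-1.17), Itln1 (-1.07) and Ifi202b (-5.84). Ifi202b was at 0.270 to 0.891 CPM in the replicate 2 libraries. In the other replicates it was at 56.95 to 249 CPM without TPCA-1 and at 9.97 to 13.8 CPM with it. The same scan found 15, 10 and 9 such low genes in replicates 1, 3 and 4, of which 1 lay in the window, and 15 high genes in replicate 1, of which 2 lay there, Ifi202b among them. The window was chosen after the 4 genes were seen, and the part that the source of the replicate 2 cells plays in the Fcgr2b and Fcgr3 levels was not tested. Fcgr4, which lies between these genes, was lowest in replicate 2 in each group too, by a smaller margin. Fcer1g, which also lies in the window, was highest in replicate 2 with DMSO and with TPCA-1 and TNFα, and Itln1 was at 0 to 2.19 CPM over all libraries.

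Fcgr2b and Fcgr3 also share sequence. Of all 50-base stretches of Fcgr3 transcripts, 9.58% occurred in Fcgr2b transcripts too, and 2.92% of those of Fcgr2b occurred in Fcgr3. Counting every other gene, 6.95% of the Fcgr2b stretches were shared. A read that lies wholly within such a stretch has no unique place and is not among the uniquely mapped reads, so both levels rest on the remaining sequence. No such stretch was found for Fcgr1, Fcgr4, Fcer1g, Tyrobp or Syk.

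Set per kilobase of merged annotated exons, Fcgr4 made the largest share of the mRNA of the 4 receptor genes in every library and Fcgr2b was a minor one. The merged lengths were 2.589 (Fcgr1), 1.736 (Fcgr3), 1.256 (Fcgr4) and 5.79 (Fcgr2b) kilobases. They may exceed the transcripts expressed, so shares and ratios between genes depend on them. Before this scaling, Fcgr2b and Fcgr3 were at means of 153 and 151 CPM with TNFα. Fcgr2b made 2.77 ± 1.12% of the receptor mRNA with DMSO, 6.91 ± 2.01% with TNFα, 8.38 ± 3.15% with TMP195 and TNFα and 5.90 ± 1.68% with TPCA-1 and TNFα (mean ± SD, n = 4). Its share was higher in every library given TNFα than in any DMSO library. The share of Fcgr1 was 18.9 ± 2.91% with DMSO, 14.8 ± 1.41% with TNFα, 17.3 ± 3.34% with TMP195 and TNFα and 5.00 ± 0.596% with TPCA-1 and TNFα. The share of Fcgr4 was 46.3 ± 3.22% with DMSO, 55.4 ± 6.51% with TNFα, 49.0 ± 4.25% with TMP195 and TNFα and 66.0 ± 5.91% with TPCA-1 and TNFα. That of Fcgr3 was 32.0 ± 4.26% with DMSO, 22.9 ± 4.86% with TNFα, 25.4 ± 4.20% with TMP195 and TNFα and 23.1 ± 4.86% with TPCA-1 and TNFα. These shares are descriptions with no test.

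The ratio of each activating receptor to Fcgr2b, on the same per-kilobase scale, was lower with TNFα than with DMSO in mean, and replicate 2 weighs on the DMSO means. Fcgr1 to Fcgr2b averaged 9.12 ± 7.67 with DMSO, 2.32 ± 0.907 with TNFα, 2.43 ± 1.34 with TMP195 and TNFα and 0.923 ± 0.382 with TPCA-1 and TNFα. Replicate 2 of DMSO had a ratio of 20.6, and without replicate 2 the means were 5.29 with DMSO and 1.89 with TNFα. Fcgr3 to Fcgr2b averaged 13.5 ± 6.54 with DMSO, 3.41 ± 0.635 with TNFα, 3.24 ± 0.804 with TMP195 and TNFα and 4.0 ± 0.536 with TPCA-1 and TNFα. The DMSO range of that ratio, 9.11 to 23.2, lay wholly above the ranges of the other 3 groups. Fcgr4 to Fcgr2b averaged 21.3 ± 15.4 with DMSO, 8.89 ± 4.11 with TNFα, 6.71 ± 3.26 with TMP195 and TNFα and 12.1 ± 4.56 with TPCA-1 and TNFα. For this ratio DMSO (12.6 to 44.4) and TNFα (5.44 to 14.8) overlapped, and without replicate 2 the means were 13.6 with DMSO and 6.91 with TNFα. The sum over the 4 receptor genes was 522 ± 114 CPM per kilobase with DMSO, 370.0 ± 80.0 with TNFα, 272 ± 82.7 with TMP195 and TNFα and 203 ± 66.5 with TPCA-1 and TNFα.

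**Figure D3:**
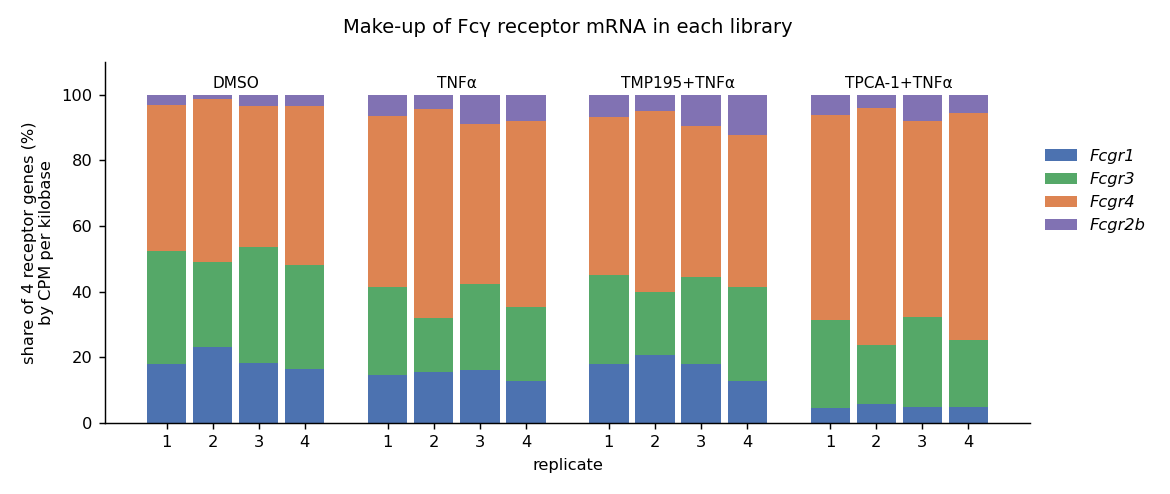
Share of each of the 4 Fcγ receptor genes in their summed CPM per kilobase (vertical axis, percent), with 1 bar per library, ordered by group and replicate number. The Fcgr1 part shrinks to 4.43% to 5.83% in the TPCA-1+TNFα libraries, and the Fcgr2b part is between 1.12% and 3.50% in the DMSO libraries and larger in all others.

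Fcer1g (ENSMUSG00000058715, chr1:171229572-171234365, minus strand), the common γ chain, had the highest level of the 7 genes per kilobase, at 4823 ± 441 CPM per kilobase with DMSO. By replicate number it was at 4323, 4493, 3647 and 4399 CPM with DMSO and at 4623, 4491, 4163 and 4934 CPM with TNFα. It was at 3587, 3384, 3128 and 3185 CPM with TMP195 and TNFα, and at 5032, 5499, 4466 and 5193 CPM with TPCA-1 and TNFα. All 4 TMP195 libraries lay below every library of the other 3 groups, and the spread within groups was small (coefficient of variation 6.29% to 9.14%).

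With TMP195 added to TNFα, Fcer1g fell by 0.45 ± 0.10 on the log2 scale (adjusted p = 0.0117) and was lower in 4 of 4 same-number pairs, at 0.645 to 0.776 of the level with TNFα alone. In all 16 alternatives run for this comparison it stayed past the threshold, with adjusted p-values up to 0.0454. Against TPCA-1 with TNFα it was lower, with a log2 change of -0.60 ± 0.10 (adjusted p = 0.000271). It was lower with TMP195 and TNFα than with DMSO, with a change of -0.34 ± 0.10 (adjusted p = 0.015), which was lost without TMP195+TNFα replicate 3 (adjusted p = 0.0517) or with no filter on low counts (adjusted p = 0.0555). TNFα alone gave 0.11 ± 0.10 against DMSO (adjusted p = 0.492), and TPCA-1 gave 0.15 ± 0.10 against TNFα (adjusted p = 0.31). TPCA-1 with TNFα against DMSO gave 0.26 ± 0.10 (adjusted p = 0.0572, and 0.0219 by DESeq2). The summed macrophage markers were also lower with TMP195 and TNFα (12705 to 18060 CPM) than with TNFα alone (18075 to 26135 CPM), and these ranges only just missed overlapping. Lyz2 made a large part of that sum, at 6214 to 9838 CPM with TMP195 and TNFα and 10056 to 15992 CPM with TNFα alone. The part of these markers in the Fcer1g change was not tested. The mast cell and basophil markers, cells in which this chain serves the IgE receptor, summed to at most 0.391 CPM in any library, and Fcer1a and Ms4a2, the other subunits of that receptor, had no read.

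Tyrobp (ENSMUSG00000030579, chr7:30413760-30417585, plus strand) was at 1489, 1395, 1543 and 1959 CPM with DMSO and at 1279, 1139, 1436 and 1691 CPM with TNFα. It was at 1114, 1059, 1223 and 1327 CPM with TMP195 and TNFα, and at 1317, 1347, 1665 and 1354 CPM with TPCA-1 and TNFα. Its groups overlapped, except that the 4 TMP195 libraries lay below the 4 DMSO libraries. TMP195 with TNFα against DMSO gave -0.44 ± 0.14 (adjusted p = 0.0227), a call lost without TMP195+TNFα replicate 1 (adjusted p = 0.0583), TMP195+TNFα replicate 2 (adjusted p = 0.0739) or DMSO replicate 4 (adjusted p = 0.086). Against TNFα alone, TMP195 gave -0.23 ± 0.14 (adjusted p = 0.40) and TPCA-1 gave 0.04 ± 0.14 (adjusted p = 0.88), and TNFα against DMSO gave -0.20 ± 0.14 (adjusted p = 0.328).

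Syk (ENSMUSG00000021457, chr13:52583173-52648792, plus strand), the kinase that docks on phosphorylated ITAMs, was at 427, 425, 402 and 602 CPM with DMSO and at 560.5, 598, 631 and 819 CPM with TNFα. Its levels were 457, 475, 522 and 584 CPM with TMP195 and TNFα, and 526, 809, 656 and 631 CPM with TPCA-1 and TNFα. DMSO replicate 4 stood above the other DMSO libraries and within the range of TNFα. Syk rose by 0.49 ± 0.16 with TNFα against DMSO (adjusted p = 0.0295), in 4 of 4 same-number pairs. The call was lost without DMSO replicate 1, 2 or 3 or TNFα replicate 4, with adjusted p-values of 0.0709 to 0.101. TPCA-1 with TNFα against DMSO gave a rise of 0.50 ± 0.16 (adjusted p = 0.0223), lost without DMSO replicate 1, 2 or 3 or TPCA-1+TNFα replicate 2 (adjusted p = 0.0619 to 0.0829). Against TNFα alone the changes were -0.36 ± 0.16 with TMP195 (adjusted p = 0.219) and 0.01 ± 0.16 with TPCA-1 (adjusted p = 0.98).

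**Figure D4:**
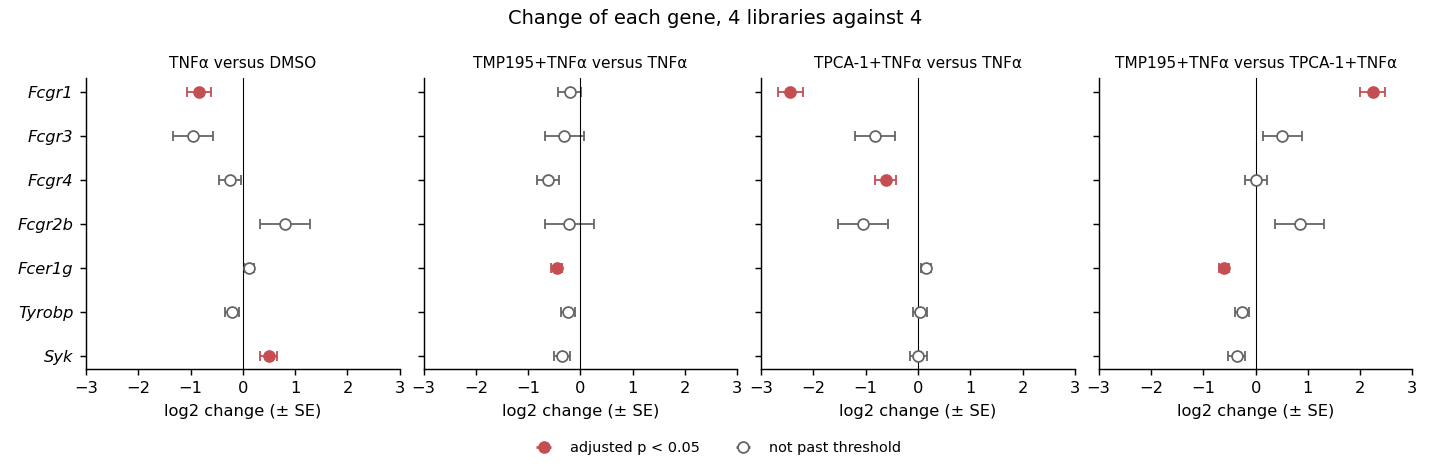
Log2 change (horizontal axes, points) with its SE (bars) of the 7 genes in 4 comparisons of 4 libraries against 4, filled where the adjusted p was under 0.05. Fcgr1 lies at -0.84 with TNFα and at -2.44 with TPCA-1 added to TNFα, and Fcer1g at -0.45 with TMP195 added to TNFα; Fcgr2b and Fcgr3 carry the widest bars.

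Counted over the 7 genes, TNFα against DMSO gave 1 higher (Syk) and 1 lower (Fcgr1), where 23.4% of all genes tested were called (10.9% higher and 12.4% lower), and the block gave 2 higher and 2 lower. TMP195 added to TNFα gave 1 lower (Fcer1g), where 5.95% of all genes were called (2.95% higher and 3% lower), a total of 750 genes that became 1699 with the block; the block gave 2 lower members. TPCA-1 added to TNFα gave 2 lower (Fcgr1 and Fcgr4), where 19.4% of all genes were called (9.67% higher and 9.72% lower). None of the 7 was higher in either inhibitor comparison by edgeR, and the count was also 0 at an unadjusted p under 0.05, by DESeq2 and by limma voom. The comparison of TMP195 with TPCA-1 gave 1 higher (Fcgr1) and 1 lower (Fcer1g), where 25.7% of all genes were called (13.1% higher and 12.6% lower). Its changes of Fcgr3 (0.51 ± 0.38), Fcgr2b (0.84 ± 0.48), Tyrobp (-0.27 ± 0.14) and Syk (-0.36 ± 0.16) did not pass, and neither did that of Fcgr4. Against DMSO, TMP195 with TNFα gave 5 lower, where 27.5% of all genes were called (13.6% higher and 13.9% lower). Against DMSO, TPCA-1 with TNFα gave 3 lower and 1 higher (Syk), where 30.3% were called (14.8% higher and 15.5% lower). The inhibitor comparisons with TNFα share its 4 libraries, so their values are given side by side only. The median change of the 7 genes was -0.20 with TNFα, -0.31 with TMP195 added and -0.62 with TPCA-1 added, against medians over all genes of 0.00, 0.02 and 0.02.

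Downstream of the receptors, 25 genes of ITAM signalling were described as a list, and all 25 were tested. With TNFα, 6 rose and 2 fell; Malt1, the paracaspase of the CARD9 complex, rose from 14.9 to 52.6 CPM (1.82 ± 0.17), and the exchange factor Vav3 (-1.11 ± 0.18) and the adaptor Lat2 (-0.61 ± 0.11) fell. With TMP195 added to TNFα, 1 rose and 6 fell. The Src-family kinase Lyn, which phosphorylates both ITAM and ITIM motifs, fell from 729 ± 54.1 to 433 ± 29.6 CPM (-0.75 ± 0.13), the adaptor Lcp2 fell (-0.56 ± 0.12) and Lat2 rose (0.49 ± 0.11). With TPCA-1 added to TNFα, 2 rose and 6 fell. The adaptor Blnk rose (1.02 ± 0.10), and Malt1 (-1.64 ± 0.17) and the ubiquitin ligase Cbl (-0.70 ± 0.12) fell. Lyn (-0.51 ± 0.13) and Lcp2 (-0.38 ± 0.12) fell with TPCA-1 as well, while Lat2 did not pass there (0.31 ± 0.11, adjusted p = 0.0544 by edgeR). The adaptor Fyb had the highest level of the list and passed the test in none of these 3 comparisons (adjusted p = 0.0573, 0.947 and 0.159). With the block, 8 rose and 5 fell with TNFα and 2 rose with TMP195 added. Over all genes, the shares called higher and lower were 10.9% and 12.4% with TNFα, 2.95% and 3% with TMP195 added and 9.67% and 9.72% with TPCA-1 added. The list's medians were 0.02, -0.21 and 0.08, beside 0.00, 0.02 and 0.02 over all genes.

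Genes for inhibitory receptors and phosphatases, the arm to which Fcgr2b belongs, formed a list of 21. With TNFα 5 of the 21 fell, where 12.4% of all genes were called lower, among them the ITIM receptor Cd300a (-1.38 ± 0.22), the lectin receptor Clec12a (-0.62 ± 0.13), the ubiquitin ligase Cblb (-0.40 ± 0.08) and the CD47 receptor Sirpa (-0.51 ± 0.14), the most abundant. None rose by edgeR or DESeq2, against 2 at an unadjusted p under 0.05, 2 by limma voom and 2 with the block. TMP195 added to TNFα gave 5 lower, led by Siglece (-1.14 ± 0.21), Clec4a2 (-1.07 ± 0.24) and Clec12a (-0.51 ± 0.13), and 1 higher (2 with the block). Of all genes, 3% were called lower and 2.95% higher there. TPCA-1 added to TNFα gave 3 lower and 3 higher, the latter Pecam1 (2.08 ± 0.28), Cd300a (1.43 ± 0.22) and the adaptor Dok1 (0.78 ± 0.15). In that comparison 9.72% of all genes were called lower and 9.67% higher. With TMP195 and TNFα against DMSO, 12 of the 21 were lower, where 13.9% of all genes were called lower and 13.6% higher, including the phosphatase SHP-1 gene Ptpn6 (-0.91 ± 0.17), and 1 was higher (2 with the block), with a list median of -0.44 against 0.00 over all genes.

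Of 23 other receptors that signal through Fcer1g, Tyrobp or Syk, 15 were tested. With TNFα, 7 rose and 2 fell, where 10.9% of all genes were called higher and 12.4% lower. Clec4e, the Mincle receptor for mycobacterial glycolipid, which pairs with the γ chain, rose from 39.5 ± 3.84 to 1680 ± 414 CPM (5.41 ± 0.46). Trem2, a lipid receptor that pairs with the Tyrobp product, fell from 281 to 117 CPM (-1.27 ± 0.18). With TPCA-1 added to TNFα, 5 fell, and Clec4e fell to 50.4 ± 39.6 CPM (-5.05 ± 0.45). With TMP195 added, 2 fell, Trem3 (-1.61 ± 0.25) and Pilrb1 (-1.02 ± 0.18), and Clec4e was at 1996 ± 544 CPM (adjusted p = 0.832). With the block, 4 fell and 3 rose with TMP195 added, and 4 fell with TNFα. Of all genes, 3% were called lower with TMP195 added and 9.72% with TPCA-1 added. The list's medians were 0.44, -0.11 and -0.41 with TNFα, with TMP195 added and with TPCA-1 added, beside 0.00, 0.02 and 0.02 over all genes.

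Among 10 other receptors for antibodies, 5 were tested. With TNFα 2 fell, where 12.4% of all genes were called lower. With TMP195 added 1 fell, where 3% were called lower. With TPCA-1 added 2 rose and 2 fell, where 9.67% were called higher and 9.72% lower. The list's medians were -0.08, -0.22 and 0.54 in these comparisons, beside 0.00, 0.02 and 0.02 over all genes. The heavy chain of the neonatal Fc receptor, Fcgrt, fell with TNFα from 31.7 to 12.4 CPM (-1.35 ± 0.20), as did Fcrls, an Fc receptor-like gene of macrophages (-0.85 ± 0.18). Fcrls fell further with TMP195 (-0.71 ± 0.18) and rose with TPCA-1 from 581 to 1202 CPM (1.05 ± 0.18), and Fcgrt rose with TPCA-1 from 12.4 to 22.4 CPM (0.84 ± 0.20). The cytosolic antibody receptor Trim21 (-1.43 ± 0.19) and B2m, the light chain partner of the neonatal receptor (-0.86 ± 0.18), fell with TPCA-1.

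The machinery that follows receptor engagement was described by the actin and phagocytic cup list, all 22 of which were tested, and by the 6 genes of the NADPH oxidase. With TNFα, 2 of the 22 actin genes rose, among them the filopodial motor Myo10 (1.01 ± 0.12), and 6 fell, among them Pak1 (-0.66 ± 0.11) and Myo1e (-0.58 ± 0.10). With TMP195 added, 5 fell (11 with the block), where 3% of all genes were called lower and the calls over all genes went from 750 to 1699 with the block. The 5 were led by Pak1 (-0.82 ± 0.11), Myo1e (-0.59 ± 0.10) and the Rac exchange factor Dock2 (-0.43 ± 0.10). With TPCA-1 added, 5 rose, Pak1 among them (0.65 ± 0.11), and 1 fell, Myo10 (-0.97 ± 0.12). Over all genes 9.67% were called higher and 9.72% lower there, and 10.9% and 12.4% with TNFα. The medians of the actin list were -0.04, -0.25 and 0.13 in these 3 comparisons. Cybb, the catalytic subunit of the oxidase, rose with TNFα from 721 ± 101 to 2584 ± 340 CPM (1.84 ± 0.27) and fell with TPCA-1 added to 772 ± 380 CPM (-1.74 ± 0.27). Ncf4, a cytosolic partner, rose with TNFα too (0.46 ± 0.14). The GTPase Rac2, which serves both lists, fell with TMP195 from 2848 ± 661 to 1821 ± 349 CPM (-0.65 ± 0.19, adjusted p = 0.0497), the 1 oxidase gene called there (2 with the block).

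The genes whose levels followed each of the 7 most closely were found by Pearson's r of log2 CPM over the 16 libraries, among 8548 genes whose mean level reached 5 CPM. Each r covers every group, so it describes a pattern over groups, and the points share library depth. For Fcgr1 they were Vps13c, Tent5a and Etnk1 (r = 0.98, 0.98 and 0.97). Frmd4a, Ptpro and Fut11 were most like Fcgr3 (0.96, 0.95 and 0.94), and Idh1, Ptpro and Sh3kbp1 most like Fcgr4 (0.93, 0.92 and 0.91). Ifi202b, the neighbour that is nearly unread in replicate 2, was most like Fcgr2b (0.89), followed by Calr and Marcksl1 (0.84 and 0.82). Brk1, Shtn1 and Sla were most like Fcer1g (0.93, 0.93 and 0.92), Ndst2, Zfp710 and Lrrc25 most like Tyrobp (0.95, 0.95 and 0.94), and Il4ra, Tubb5 and Elovl1 most like Syk (0.97, 0.96 and 0.95). None of the 7 genes was among another's 3. With group means removed, the r between Fcgr3 and Fcgr2b over the 16 libraries was 0.91, and the r between Fcer1g and Fcgr1 was -0.03.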

How the data were processed

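Counts of uniquely mapped reads per gene, made by the authors with STAR 2.6.1d on mouse build mm10/GRCm38 per the submitters' processing notes, were the deposited values; the annotation release is not given in the sources used here. They are whole and not normalized. The column for the strand opposite to the gene was used, since it held over 5 times the reads of the other strand. Rows that name no gene stayed out. GENCODE M21 gave symbols for 54809 of 54838 identifiers.

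Levels are counts per 1e6 counted reads, scaled by TMM (CPM). The test was edgeR's quasi-likelihood test (version 4.0.16 in R 4.3.3, 2-sided, after filterByExpr) in 1 model of all 16 libraries, with Benjamini-Hochberg adjustment over 12612 genes and a threshold of 0.05; the scripts were tested on simulated counts. DESeq2 1.42.0, limma 3.58.1, other scaling, no filter, unstranded counts, 2 groups only, a replicate block and leaving out each library were alternatives. Leaving out TPCA-1+TNFα replicate 2 from comparisons without that group, and replicate 2 from the receptor ratios, was added after the data were seen. Counting floors cover counting error only, as the reads carry no molecular identifiers and so do not count separate molecules. Replicates differed by far more than sampling noise (chi-square per gene of 13.4 to 73.5 over 24 pairs).

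Equal replicate numbers were taken to pair libraries where, after removal of group means, each same-number correlation was over 0.1. They were 0.33 to 0.68 (TNFα, DMSO), 0.37 to 0.67 (TMP195+TNFα, TNFα) and 0.27 to 0.65 (TMP195+TNFα, DMSO), and reached down to -0.04, -0.01 and 0.02 in the comparisons with TPCA-1+TNFα. The pairing comes from the data, not from the labels.

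The members and lists were chosen with earlier results of these data known. All 7 members are named. From each list and comparison the rule allows up to 3 genes with the smallest adjusted p past the threshold and the gene with the highest level. It also allows the 3 genes most like each member and the highest gene of each cell type list. Cd22, Ly6g, Elane, Ngp, Fcer1a, Ms4a2, Itln1 and Ifi202b (in the scan) were named after their values were seen. So were Lyn, Lcp2 and Lat2 with TPCA-1 added.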

Additional observations from a re-analysis of the deposited data

Results flagged for a closer look

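In 4 of the 28 sets of 4 libraries looked at (7 genes in 4 groups), 1 library stood far from the other 3, by a gap that Dixon's criterion allows in about 1 of 20 sets by chance. Fcgr1 was at 308 CPM in DMSO replicate 1, above the other DMSO libraries. Syk was at 602 CPM in DMSO replicate 4, the highest of its group. Fcgr2b was at 55.1 CPM in TMP195+TNFα replicate 2, the lowest of its group, as it was in replicate 2 of every group. Tyrobp was at 1665 CPM in TPCA-1+TNFα replicate 3, the highest of its group.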

How the results depend on the processing

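No called change of the 7 genes changed sign in any alternative run. Of 651 recomputed changes of single genes, 583 kept their direction and side of the threshold, 27 newly passed it, 23 no longer passed it, and 18 that had not passed it changed sign. For TNFα against DMSO, the count of higher members was 2 with the replicate block and 0 to 1 over left-out libraries, and the count of lower members was 2 with limma voom, no filter, the block or only the 2 groups, and 1 to 2 over left-out libraries. For TMP195 added to TNFα, lower members numbered 2 with DESeq2, limma voom, no filter or the block and 1 to 2 over left-out libraries; of all genes 1209 were called with DESeq2, 1778 with limma voom, 1699 with the block and 446 to 1041 over left-out libraries, against 750. For TPCA-1 added to TNFα, lower members numbered 1 with limma voom or only the 2 groups, 4 with no filter or the block and 1 to 2 over left-out libraries; of all genes 3835 were called with the block and 1551 with only the 2 groups, against 2446. For TMP195 against TPCA-1, the block gave 3 higher and 3 lower members, limma voom 2 lower, and left-out libraries 1 to 2 lower. Against DMSO, TMP195 with TNFα gave 1 higher member with the block and 3 to 5 lower over left-out libraries, and TPCA-1 with TNFα gave 2 higher with DESeq2 or the block and 0 to 2 over left-out libraries. The cause of these shifts was not tested. By the correlation rule the numbers were not taken to pair the TPCA-1+TNFα libraries, so its block values are not read as a measure of the effect. Yet Fcgr2b, Fcgr3 and Ifi202b were lowest in replicate 2 of this group too, and whether its numbers mark a shared source was not tested. Its same-number correlations not over 0.1 were those of replicate 2, its shallow library, and of replicate 4 against TMP195+TNFα (0.0864). The block changed no other member call in the 3 paired comparisons beyond those printed above for Fcgr3, Fcgr2b and Fcgr4. Depth did not leave any member near the floor of 3 reads.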
